A study of Homo sapiens with 6 samples.

Results

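The genes described are the proto-oncogene MYC, its binding partner MAX, and ODC1, NPM1, NCL, CAD and FBL, 5 genes of cell growth and of the nucleolus. The rule that selects them lists Ensembl gene IDs and uses no threshold on a measured value, and the 7 IDs were found among 62492 features, 20515 of them seen at least once in these libraries. Ribosome-protected fragments were counted in WPMY-1, a human prostate stromal line of myofibroblast type that was immortalised with SV40 large T antigen. The libraries labelled sh61A carried a short hairpin RNA against TRMT61A (genotype TRMT61A knockdown, n = 3), and those labelled shcontrol carried a control hairpin (genotype TRMT61A wildtype, n = 3). All 6 come from the same cell line, and no drug, time point or second hairpin is given in the labels. The labels do not say whether the 3 libraries of a group were separate cultures or separate transductions, so each p-value measures a spread that may be technical.

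TRMT61A is the catalytic subunit of the enzyme that methylates an adenosine in the T loop of many tRNAs. MYC is a transcription factor that pairs with MAX to bind the DNA element called the E-box, and it drives genes for ribosome assembly, nucleotide synthesis and polyamine synthesis. Its mRNA and protein are both short-lived, and in mouse T cells its synthesis has been reported to depend on this tRNA methylation. A gene's ribosome footprint count reflects the amount of its mRNA together with how densely ribosomes occupy it. No mRNA measurement was used, so these values do not separate the 2, and in bulk lysates fewer cells making a protein cannot be told apart from fewer footprints per cell.

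ODC1, CAD, NCL, NPM1 and FBL are textbook MYC targets, so the RefSeq windows from 250 bases before to 50 bases after each gene start (GRCh38.p14) were searched for the palindromic E-box CACGTG. These windows are shown to put the element that MYC and MAX recognise beside the genes measured. Windows of 6 of the 7 genes were searched (9 windows in all). No window of MYC was searched, so whether MYC holds the element near its start was not tested. Among the 6 genes searched, 2 held the element, and by window it was in 2 of the 9. It occurs in 7.26% of all 35116 windows. The share over all genes was not computed, so only the count by window compares with it. The 30 bases around each match are printed on the gene's strand, with the E-box in capitals.
ODC1, chr2:10448024-10448053, minus strand: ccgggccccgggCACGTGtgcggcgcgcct
ODC1, chr2:10447990-10448019, minus strand: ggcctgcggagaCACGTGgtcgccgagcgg
FBL, chr19:39846356-39846385, minus strand: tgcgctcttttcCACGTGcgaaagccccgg
In ODC1 both matches lie in 1 of its 2 windows. Counted from the start site of that window, the E-box begins at position -29 at the first match and at position 6 at the second. The RefSeq span of ODC1 runs from 10439968 to 10448327, so both matches lie within it. In FBL it begins at position 7. The windows of MAX, NPM1, NCL and CAD do not contain these 6 letters. Bases outside the windows were not searched, so these genes may hold the element elsewhere. The footprint counts do not measure binding at these sites.

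Library totals were 12704354 to 17752247 counts for sh61A and 6771455 to 8008896 for shcontrol. Because a few features took most of each library (the top 50 held 69.7% to 73.0% of sh61A counts and 61.4% to 70.7% of shcontrol counts), levels are given as CPM (counts scaled to a common library size) adjusted by TMM, a method that sets libraries on the bulk of their features. The 7 genes together held 0.0361%, 0.0328% and 0.0367% of all counts in sh61A libraries 1 to 3, against 0.0350%, 0.0561% and 0.0566% in shcontrol libraries 1 to 3. Outside the 50 features with most counts, they held 0.134%, 0.117% and 0.121% in sh61A, against 0.120%, 0.149% and 0.147% in shcontrol. By either measure the groups overlapped. The ID of TRMT61A, the defining markers of stromal cells and the other genes of the MYC, polyamine, nucleotide and nucleolar pathways could not be matched to the table by name, so the extent of the knockdown, the labelled cell type and the wider pathways were not analysed here.

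None of the 7 genes passed the test between the groups (edgeR quasi-likelihood test, Benjamini-Hochberg adjusted p under 0.05 over 11653 tested features). Of all tested features 3.12% passed, 1.48% higher and 1.64% lower in sh61A, so with 7 genes a count of 0 is near the background. DESeq2 and limma voom also called 0 of the 7. At an unadjusted p under 0.05 there were 2 of the 7, ODC1 and NPM1, both lower in sh61A, against 16.3% of all tested features. The median log2 fold change of the 7 was -0.14, and that of all tested features was -0.0047. The median size of change, without sign, was 0.46 for the 7 and 0.51 for all tested features. In 3 genes, MYC, ODC1 and NPM1, the 3 libraries of one group all lay beyond the 3 of the other, which was so for 24.8% of all tested features. MYC was the 1 gene separated upwards, where the share of all tested features was 12.2%, and ODC1 and NPM1 were separated downwards, where it was 12.7%. When libraries were scaled by their totals only, ODC1 and NPM1 remained separated and MYC did not, against 25.2% of all tested features.

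**Figure D1:**
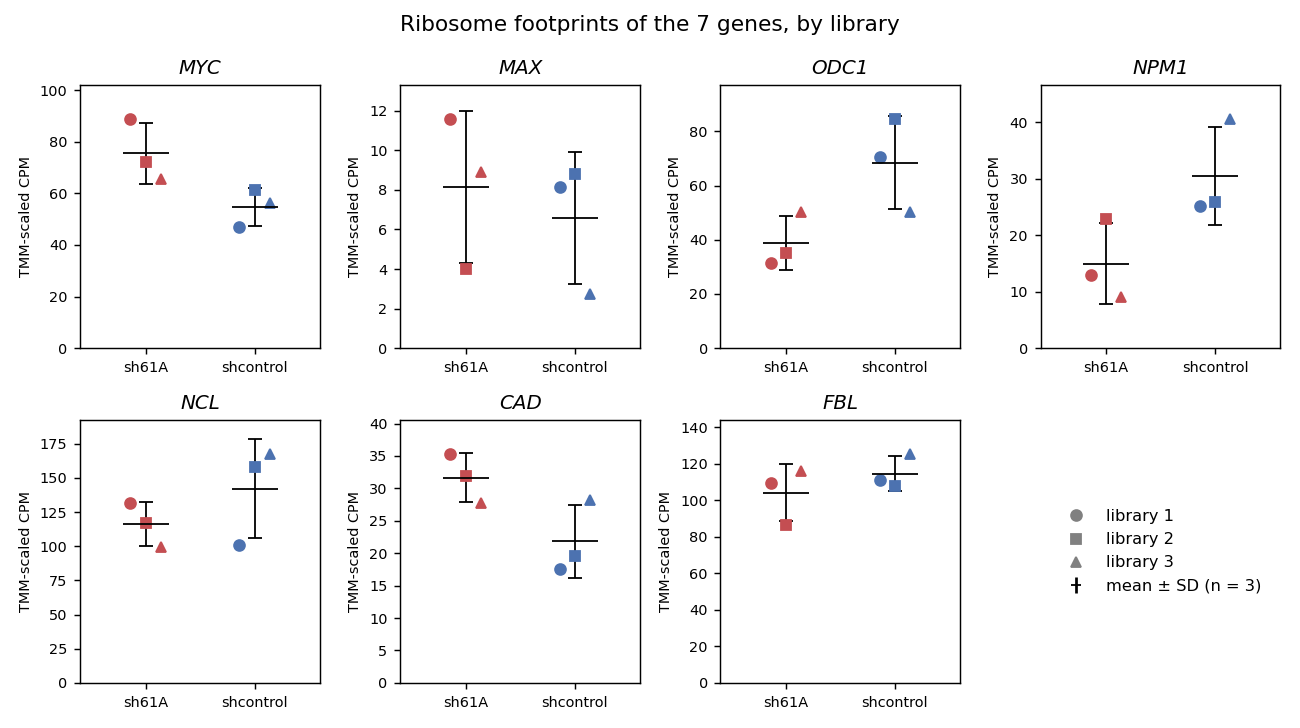
Each panel plots the TMM-scaled CPM of 1 gene on the vertical axis for the sh61A and shcontrol libraries, with points for libraries and the bar for the mean ± SD (n = 3). The MYC points of sh61A, 65.6 to 88.7, sit above those of shcontrol, 46.8 to 61.3, while the ODC1 and NPM1 points of sh61A sit below theirs.

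MYC (ENSG00000136997.20_9) had 1349, 852 and 810 counts in sh61A libraries 1 to 3 and 345, 500 and 496 in shcontrol libraries 1 to 3. As scaled levels these were 88.7, 72.2 and 65.6 CPM in sh61A, against 46.8, 61.3 and 56.3 CPM in shcontrol. Every sh61A library was therefore above every shcontrol library, with 4.33 CPM between the nearest 2, a gap little larger than counting error. The means were 75.5 ± 11.9 CPM in sh61A and 54.8 ± 7.4 CPM in shcontrol (SD, n = 3 each). The fitted log2 fold change was 0.46 ± 0.23 (SE). Leaving out 1 library at a time moved it between 0.33 (without sh61A library 1) and 0.56 (without sh61A library 3). MYC did not pass the test, at 0.0707 unadjusted and an adjusted p = 0.360 (edgeR). The 95% interval of the fold ran from 0.969 to 1.96, and so spanned levels from just under that of the control to 1.96 times it.

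The separation of the MYC values rested on the scaling. Divided by the library total alone they were 76.0, 64.1 and 63.8 CPM in sh61A, against 43.1, 73.8 and 67.7 CPM in shcontrol, and the groups overlapped. The log2 fold change was then 0.14. With that scaling the median of all tested features moved to -0.30, and relative to it MYC stood at 0.44.

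MAX, the obligate partner of MYC (ENSG00000125952.20_8), had the fewest counts of the 7 in every library. It had 176, 47 and 110 counts in sh61A and 60, 72 and 24 in shcontrol. The levels were 11.6, 3.98 and 8.91 CPM in sh61A, against 8.14, 8.83 and 2.72 CPM in shcontrol. Each group held both a high and a low library, and the groups overlapped throughout. The log2 fold change of 0.32 ± 0.60 (SE) had a 95% interval from -0.99 to 1.62 (edgeR adjusted p = 0.876), the widest of the 7. The smallest change of MAX that these libraries could detect was not computed. Without sh61A library 1 or without shcontrol library 3 the value turned to -0.023 and -0.058. In RefSeq the gene overlaps FNTB, CHURC1-FNTB, MAX-AS1 and MIR4706, and whether the counting used strand is not stated, so reads may be shared with them.

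ODC1 (ENSG00000115758.13_9) encodes ornithine decarboxylase, the first and rate-limiting enzyme of polyamine synthesis, and it carries the E-box pair printed above. It had 476, 416 and 620 counts in sh61A, and 520, 689 and 443 in shcontrol. The levels were 31.3, 35.3 and 50.23 CPM in sh61A, against 70.5, 84.5 and 50.24 CPM in shcontrol. The groups did not overlap, but library 3 of each group had nearly the same level, so the separation rests on a margin far below counting error. Divided by the library total alone, the levels were 26.8, 31.3 and 48.8 CPM in sh61A and 64.9, 102 and 60.4 CPM in shcontrol, again without overlap.

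ODC1 averaged 38.9 ± 9.99 CPM in sh61A and 68.4 ± 17.2 CPM in shcontrol (SD, n = 3 each). The log2 fold change was -0.81 ± 0.28 (SE), with a 95% interval from -1.42 to -0.21. The unadjusted p was 0.0127, but the adjusted p was 0.148 in edgeR and ran from 0.0699 (DESeq2) to 0.454 (without shcontrol library 2) over 17 alternatives. ODC1 holds the small nucleolar RNA SNORA80B within its RefSeq span. Whether the counting left out reads of that RNA is not stated, so the counts of ODC1 may include reads that are not footprints.

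NPM1 (ENSG00000181163.13_4) encodes nucleophosmin, an abundant nucleolar chaperone of ribosome assembly. It had 196, 270 and 111 counts in sh61A, and 185, 211 and 357 in shcontrol. The levels were 12.9, 22.9 and 8.99 CPM in sh61A, against 25.1, 25.9 and 40.5 CPM in shcontrol. All sh61A libraries lay below all shcontrol libraries, with sh61A library 2 and shcontrol library 1 only 2.21 CPM apart.

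NPM1 averaged 14.9 ± 7.2 CPM in sh61A and 30.5 ± 8.7 CPM in shcontrol (SD, n = 3 each), the largest fitted difference of the 7. Its log2 fold change was -1.03 ± 0.38 (SE), with a 95% interval from -1.86 to -0.21, a p of 0.0182 before adjustment and 0.180 after it (edgeR adjusted p). The adjusted p ran from 0.0909 to 0.498 over 17 alternatives, and leaving out 1 library at a time moved the log2 fold change between -1.48 (without sh61A library 2) and -0.76 (without sh61A library 3). NPM1 has 50 pseudogenes named for it in RefSeq, NCL has 2, FBL has 1 and the other 4 genes have 0. Short reads can match such copies equally well, and how the authors treated them is not given in the sources used here, so its level is uncertain.

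NCL (ENSG00000115053.16_6) encodes nucleolin, which binds nascent pre-ribosomal RNA. Its levels were 132, 117 and 99.7 CPM in sh61A, against 101, 158 and 168 CPM in shcontrol. The groups overlapped because shcontrol library 1 lay among the sh61A values. The log2 fold change was -0.29 ± 0.25 (SE), with a 95% interval from -0.83 to 0.25 (edgeR adjusted p = 0.654). Leaving out 1 library moved it to -0.49 without shcontrol library 1, -0.16 without shcontrol library 3 and -0.19 without sh61A library 3. With library size alone it was -0.63, or -0.33 relative to the shifted median of all features. Within its span RefSeq places 3 small nucleolar RNAs, SNORA75, SNORD20 and SNORD82, so its counts too may include reads that are not footprints.

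FBL (ENSG00000105202.9_9) encodes fibrillarin, the methyltransferase of box C/D small nucleolar ribonucleoproteins. It had the smallest fitted difference of the 7. Its levels were 110, 86.8 and 116 CPM in sh61A, against 111, 108 and 125 CPM in shcontrol, with overlap. The log2 fold change was -0.14 ± 0.22 (SE), and the 95% interval of the fold, 0.653 to 1.27, spans 1 (adjusted p = 0.851 in edgeR). The value was -0.022 without sh61A library 2, -0.072 without shcontrol library 3 and -0.22 without sh61A library 3. With library size alone it was -0.43, or -0.13 relative to the shifted median.

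CAD (ENSG00000084774.14_6) encodes the trifunctional enzyme that starts pyrimidine synthesis. Its levels were 35.3, 31.9 and 27.8 CPM in sh61A, against 17.6, 19.6 and 28.2 CPM in shcontrol. The groups overlapped only because shcontrol library 3 was just above sh61A library 3. The means were 31.7 ± 3.8 CPM in sh61A and 21.8 ± 5.6 CPM in shcontrol (SD, n = 3 each). The fitted log2 fold change was 0.54 ± 0.29 (SE), with a 95% interval from -0.089 to 1.16 (edgeR adjusted p = 0.399). With library size alone the value was 0.21, or 0.51 relative to the shifted median of all features, and leaving out 1 library moved it between 0.40 (without shcontrol library 1) and 0.76 (without shcontrol library 3).

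**Figure D2:**
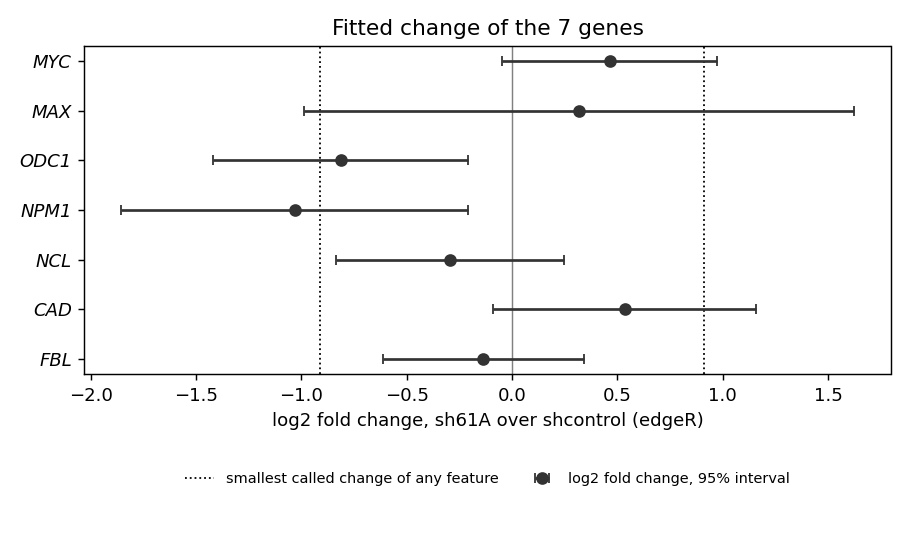
Points are fitted log2 fold changes of sh61A over shcontrol on the horizontal axis, with bars for the 95% interval. The smallest change, without sign, of any feature that passed the adjusted threshold was 0.91. Dotted lines mark this size on both sides of 0, without regard to the direction of that feature. Only the intervals of ODC1 and NPM1 lie wholly on one side of 0, before adjustment for the number of features tested.

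The spread between libraries of a group differed among the genes. The coefficient of variation was 15.7% in sh61A and 13.5% in shcontrol for MYC, and 47.2% and 51.0% for MAX. Counting error alone would give 3.16% and 4.73% for MYC and 9.49% and 13.9% for MAX, so in both the libraries differed by more than counting. For NPM1 the coefficient was 48.0% in sh61A and 28.5% in shcontrol, while the medians of tested features in the same of 5 equal classes of abundance were 26.2% and 24.8%. NPM1 in sh61A thus varied more than the median feature of like abundance, and MYC, in the most abundant class with medians of 18.2% and 19.3%, varied less in both groups. CAD varied by 11.9% in sh61A and 25.8% in shcontrol.

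Ratios of counts within a library need no scaling, since depth and composition cancel, and they compare a gene's change with that of another and not levels between genes. All 21 pairs of the 7 genes were formed. In 6 of them the 3 sh61A libraries lay wholly beyond the 3 shcontrol libraries, against 24.4% of all pairs of tested features with counts in every library, so 6 of 21 is close to the background. The pairs share genes and are not independent, and with 3 libraries against 3 an exact permutation test could not go below 0.1, so no pair was tested.

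Of the 6 pairs, 3 had MYC as the numerator. The ratio of MYC to NCL was 0.672, 0.618 and 0.658 in sh61A, against 0.463, 0.388 and 0.336 in shcontrol, a mean difference of 0.73 on the log2 scale. The ratio of MYC to ODC1 was 2.83, 2.05 and 1.31 in sh61A, against 0.663, 0.726 and 1.12 in shcontrol, a difference of 1.27. The ratio of MYC to NPM1 was 6.88, 3.16 and 7.30 in sh61A, against 1.86, 2.37 and 1.39 in shcontrol, a difference of 1.56. In each of these pairs every sh61A library had more MYC per footprint of the target gene than any shcontrol library, a statement about unequal change that cannot say which of the 2 genes moved.

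The other 3 pairs all involved CAD. The ratio of NCL to CAD was 3.74, 3.66 and 3.59 in sh61A, against 5.73, 8.06 and 5.93 in shcontrol. The ratio of NPM1 to CAD was 0.365, 0.718 and 0.324 in sh61A, against 1.42, 1.32 and 1.43 in shcontrol. The ratio of CAD to FBL was 0.322, 0.367 and 0.239 in sh61A, against 0.159, 0.182 and 0.225 in shcontrol. The CAD share of each such pair was thus larger in sh61A. The ratio of MYC to CAD was 2.51, 2.27 and 2.36 in sh61A, against 2.65, 3.13 and 1.99 in shcontrol, with all sh61A values inside the range of shcontrol.

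**Figure D3:**
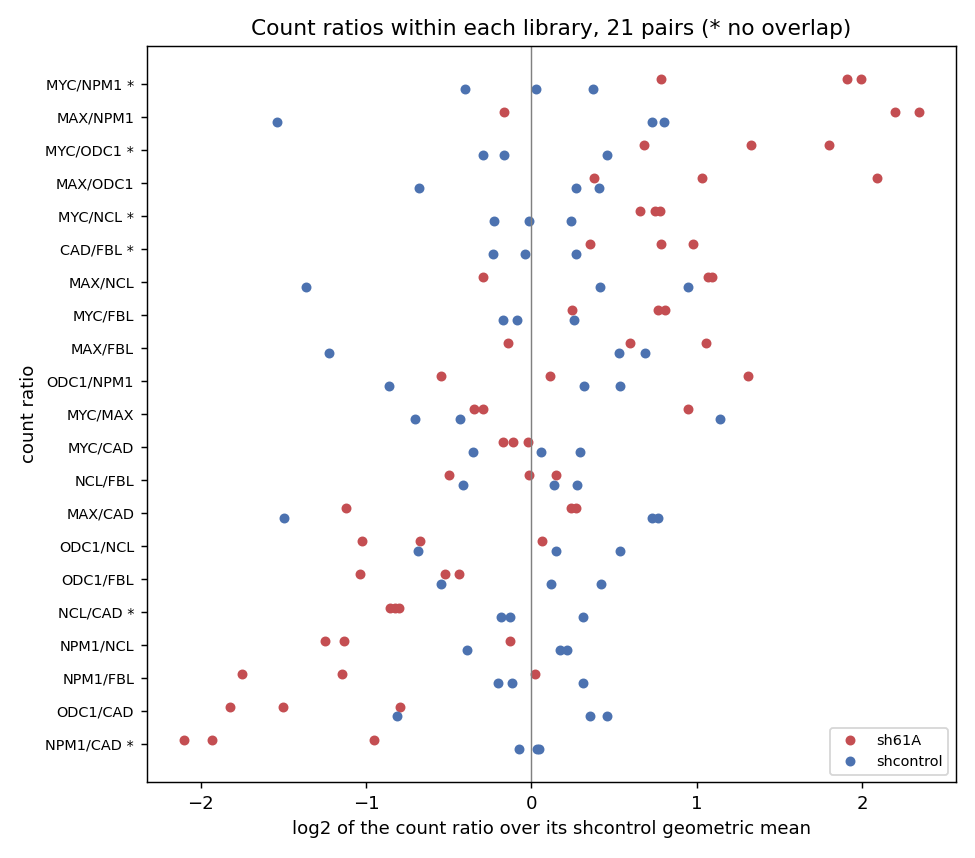
Each row is the ratio of counts of 2 genes, and the horizontal axis is its log2 value in each library relative to the geometric mean of the shcontrol libraries, with sh61A points above shcontrol points in a row. Asterisks mark the 6 pairs without overlap, which are MYC to NPM1, ODC1 and NCL, CAD to FBL, and NCL and NPM1 to CAD.

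Likeness to MYC was measured as the root mean square difference of log2 CPM profiles over the 6 libraries, each profile centred on its own mean, among 5907 other features averaging 10 CPM or more. CAD was the closest of the 7, at 0.199 and rank 152, and the median over all compared features was 0.493. FBL followed at 0.375 and NCL at 0.388, while ODC1 at 0.748 and NPM1 at 0.894 were farther from MYC than the median feature. MAX, below 10 CPM on average, was at 0.692 and has no rank. The 2 features most like MYC were ENSG00000177225.17_10, at 0.0647, and ENSG00000105254.12_6, at 0.0691, which the files do not name. The first had 16.1, 14.3 and 13.6 CPM in sh61A, against 9.49, 12.5 and 10.9 CPM in shcontrol. With 6 libraries and 5907 features, close profiles are to be found for many genes, so the likeness is a description only.

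**Figure D4:**
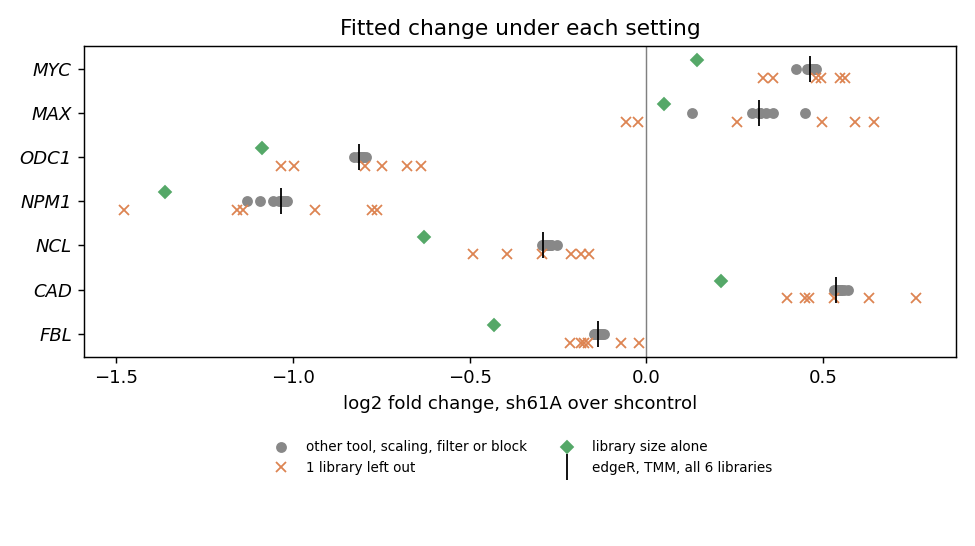
Each row shows the log2 fold change of 1 gene under every alternative, with the black tick for the TMM-scaled edgeR value from all 6 libraries. Using library size alone moved all 7 genes down, MAX changed sign in 2 fits without 1 library, and the other 6 genes stayed on their side of 0.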

How the data were processed

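The deposited table holds raw read counts per Ensembl gene ID, with no normalisation by the authors visible in the values. The submitters' processing notes name fastp, Bowtie 1.3.1 and hg38. How reads were counted (tool, annotation, read lengths, multimapping, strand) is not given in the sources used here, and most IDs have a suffix form used for annotation carried to GRCh37. Per the labels' protocols, RNase I-digested monosomes were purified on a sucrose gradient, rRNA was depleted and short fragments were gel-selected. No molecular identifiers are described, so counting errors omit PCR duplication. The columns named vec were matched to the shcontrol samples by assay and number. A further 6 columns belong to samples outside those described and were not used, so translation efficiency was not computed.

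Gene names came from the rule that chose the 7 IDs, since 0 of the 59792 rows of the gene table carry an Ensembl ID. The members and lists were chosen with earlier results of these data known. All 7 are named, with the 2 features most like MYC. In R 4.3.3, edgeR 4.0.16 (filterByExpr, TMM, glmQLFit, glmQLFTest, two-sided) was fitted to 11653 features over all 6 libraries and tested on simulated data. The SE is the log2 fold change divided by the square root of F. A count of 0 would allow up to 3 counts, 0.443 CPM in the shallowest library. Alternatives were DESeq2 1.42.0, limma 3.58.1 with voom, other scalings and filters, a robust fit, removal of the top 50 features, thinning, a replicate block and each library left out.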

Additional observations from a re-analysis of the deposited data

How the results depend on the processing

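None of the 7 genes passed the adjusted threshold under any of the 17 alternatives. Across 118 fitted values (MAX had none under the filter of 10 CPM in 3 libraries), 116 kept their direction, and the lowest adjusted p was 0.0699, that of ODC1 in DESeq2. The 2 that reversed were MAX without sh61A replicate 1 (-0.023) and without shcontrol replicate 3 (-0.058), in a range from -0.058 to 0.64 with 1 library left out. Calls among all features numbered 364 of 11653 (3.12%) in the TMM-scaled edgeR fit. They numbered 735 of 20515 (3.58%) without a filter on low counts and 602 of 6111 (9.85%) with at least 10 CPM in 3 libraries. DESeq2 called 799 of 11653 (6.86%), with the adjusted p undefined for 4519. With 1 library left out the calls numbered 47 to 171 (0.371% to 1.44% of the features tested). Those last fits have fewer samples, and the causes of the other differences were not tested. Calls higher in sh61A made up 47.5% of all calls with TMM and 15.9% with library size alone. With the replicate block 208 features and 0 of the 7 genes were called. Deviations of same-numbered libraries correlated at -0.0065, -0.015 and 0.039, so the numbers were not taken to pair libraries. MAX had the fewest counts, 24 to 176 per library, but its libraries differed by more than counting error, and whether depth or that spread limits it was not tested.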
